A study of Mus musculus with 4 samples.

Results

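The genes described here are 7 chains of the interleukin-1 (IL-1) receptor family, *Il1rl2*, *Il1rl1*, *Il18r1*, *Il18rap*, *Il1r1*, *Il1r2* and *Il1rap*, and the receptor antagonist gene *Il1rn*, which makes 8 genes among 15981 genes listed in RNA-Seq tables of tumor-infiltrating Tc1 and Tc9 cells. They were found by gene symbol. The family was picked because *Il1rl2* was much lower in Tc9 cells, so the differences of its members between Tc9 and Tc1 cells are given as a description, with no test. Tc1 and Tc9 cells are CD8+ T cells that were cultured in vitro for 5 days. Per the study's methods the first 3 days were under polarizing conditions, Tc1 with recombinant human IL-2 and Tc9 with IL-4, TGF-β and an antibody against IFN-γ, and both groups then received IL-2. Both came from Thy1.1+ Pmel-1 mice, whose transgenic T cell receptor recognizes the melanocyte protein gp100, and both were transferred into Thy1.2+ C57BL/6 mice carrying a subcutaneous B16 melanoma of 10 days. The cells were sorted from the tumors 14 days later, and RNA pooled from several mice gave 2 libraries per group. Per the study's methods the hosts also received cyclophosphamide before the transfer, and peptide-pulsed dendritic cells and recombinant human IL-2 after it. The transferred cells of both groups therefore share one receptor specificity, host strain and tumor model, and were polarized differently. The paper reports that Tc9 cells held back tumor growth more than Tc1 cells, so the tumors need not have been alike at sorting. Nothing in the sources says which mice went into which pool, so the spread between libraries may be partly technical.

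Receptors of the IL-1 family work as pairs, with a chain that binds the ligand and an accessory chain that is needed to signal. Both chains recruit the adaptor MyD88 and IRAK kinases, which lead to NF-κB and MAP kinases. IL1RL2 (the IL-36 receptor), IL1RL1 (ST2, the IL-33 receptor) and IL1R1 (the IL-1 receptor) share the accessory chain IL1RAP, whereas IL18R1 pairs with its own accessory chain, IL18RAP. IL1R2 is a decoy that binds IL-1 without signaling, and IL1RN is the secreted antagonist of IL1R1. In CD8+ T cells the IL-18 receptor is best known for raising IFN-γ production together with IL-12, and IL-33 and IL-36 can act on activated effector cells.

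The tables are ordered by gene identifier and stop at different points, so the number of libraries differs between genes. All 4 tables reach *Il1rl2*, and 3 tables (Tc1 replicate 2 and both Tc9 libraries) reach each of the other 7 members. A gene that a table reaches but does not list was taken as 0 counts. The depth of the libraries was 30822953 to 31927162 counts, and 3 counts, the smallest level read as present, corresponded to 0.0952 to 0.0956 CPM (counts scaled to the depth of the library). *Cd8a*, which does not separate the groups, had 19330 to 21622 counts in all 4 libraries. The labels held for 3 libraries in *Il9*, the cytokine that defines Tc9 cells. It had 3 counts in Tc1 replicate 2 against 2601 and 2667 in the Tc9 libraries. *Il9* was not reached in Tc1 replicate 1, so the label of that library was not checked with it. *Ifng* was at 15303 counts in Tc1 replicate 2, against 5097 and 4700 in the Tc9 libraries. In bulk RNA, fewer cells that express a gene and less RNA of it per cell cannot be told apart.

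*Il1rl2*, which encodes the ligand-binding chain of the IL-36 receptor, was read with 96 counts in Tc1 replicate 1, 93 in Tc1 replicate 2, 16 in Tc9 replicate 1 and 6 in Tc9 replicate 2. Per length, these were 0.78, 0.75, 0.13 and 0.05 FPKM (fragments scaled by gene length and library depth). Both Tc9 libraries lay below both Tc1 libraries, and the Tc1 libraries were nearly equal. The level was 8.49-fold lower in Tc9 cells (edgeR log2 fold change -3.08, SE 0.35, n = 2 per group). The size of this difference depended on the Tc9 library: the log2 fold change was -3.95 without Tc9 replicate 1 and -2.55 without Tc9 replicate 2, and the SD of log2 CPM was 0.83 in Tc9 and 0.03 in Tc1 cells. As background, both Tc9 libraries lay below both Tc1 libraries in 35.7% of the 1284 genes tested over the 4 libraries, and at least 2-fold below both in 3.43%.

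*Il1rl1*, the ST2 gene and the IL-33-binding chain, was the next lowest relative to Tc1. Tc1 replicate 2 held 181 counts (1.14 FPKM), Tc9 replicate 1 held 38 (0.26 FPKM) and Tc9 replicate 2 held 26 (0.17 FPKM). The CPM ratio to Tc1 replicate 2 was 0.210 (95% interval 0.148 to 0.297) in Tc9 replicate 1 and 0.144 (0.0956 to 0.216) in Tc9 replicate 2. These intervals come from Wilson limits on the shares of counts and cover counting error only, as do all intervals and floors below. *Il1rl1* makes a long membrane receptor and a shorter soluble form. The 5 annotated transcripts are 5302, 5053, 2661, 1216 and 375 bases long, and the length in the tables was 5099.7, 4923.16 and 5193 bases in the same order of libraries. The tables hold no count per transcript, so the forms were not separated here.

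The 2 chains of the IL-18 receptor were the most abundant of the family in Tc1 cells, and both were lower in Tc9 cells. *Il18r1*, the binding chain, was counted 1742 times in Tc1 replicate 2, 629 times in Tc9 replicate 1 and 511 times in Tc9 replicate 2. Its level was 13.1 FPKM in the Tc1 library and 4.90 and 3.65 FPKM in the Tc9 libraries. *Il18rap*, the accessory chain, was at 1337 counts (8.28 FPKM) in Tc1 replicate 2, 610 (3.91 FPKM) in Tc9 replicate 1 and 486 (3.14 FPKM) in Tc9 replicate 2. The CPM ratio of *Il18r1* was 0.361 (0.330 to 0.396) and 0.294 (0.266 to 0.324), and that of *Il18rap* was 0.456 (0.415 to 0.502) and 0.364 (0.328 to 0.404). The 2 Tc9 libraries lay on one side of the Tc1 library for both chains, with Tc9 replicate 2 the lower for each. Against the 3 libraries, the edgeR log2 fold change was -1.61 (SE 0.22) for *Il18r1* and -1.29 (SE 0.22) for *Il18rap*, and each SE takes the lone Tc1 library to vary as the Tc9 libraries do.

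**Figure D1:**
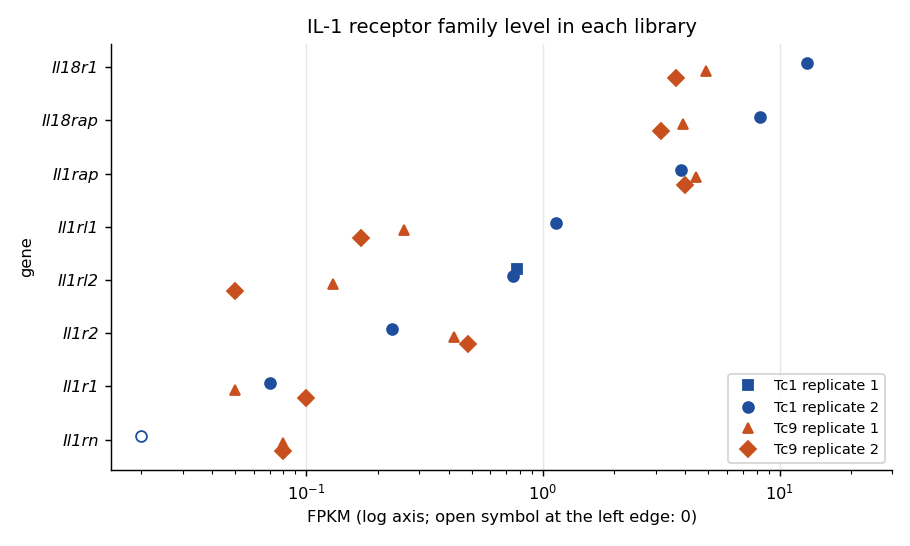
Level of each of the 8 genes in FPKM (horizontal, log axis), 1 symbol per library, with Tc1 in blue and Tc9 in orange; an open symbol marks a level of 0. For *Il18r1*, *Il18rap*, *Il1rl1* and *Il1rl2* the Tc9 symbols lie left of the Tc1 symbols, whereas for *Il1rap* the 3 symbols lie between 3.85 and 4.45 FPKM.

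*Il1rap*, the accessory chain shared by the IL-1, IL-33 and IL-36 receptors, was near the same level in the 3 libraries. It had 487 counts (3.85 FPKM) in Tc1 replicate 2, 558 (4.45 FPKM) in Tc9 replicate 1 and 482 (4.0 FPKM) in Tc9 replicate 2. The CPM ratios were 1.15 (1.02 to 1.29) and 0.990 (0.873 to 1.12), so the Tc1 value fell between those of the Tc9 libraries. Expressed against *Il1rap* in the same library, *Il1rl1* was 0.296 in Tc1 replicate 2 and 0.0584 and 0.0425 in the Tc9 libraries, as a ratio of FPKM. The same ratio for *Il1rl2* was 0.195 in Tc1 replicate 2 and 0.0292 and 0.0125 in the Tc9 libraries. The IL-18 receptor chains were closer to each other in Tc9 cells, with an *Il18r1* to *Il18rap* ratio of 1.58 in Tc1 replicate 2, 1.25 in Tc9 replicate 1 and 1.16 in Tc9 replicate 2.

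The receptors and inhibitors of IL-1 itself were at low levels in these cells. *Il1r1*, the signaling receptor, reached 11 counts in Tc1 replicate 2, 7 in Tc9 replicate 1 and 14 in Tc9 replicate 2. Its CPM ratios were 0.637 (0.255 to 1.59) and 1.27 (0.589 to 2.75), so the Tc9 libraries lay on both sides of the Tc1 value. The interval in Tc9 replicate 1 includes a 2-fold decrease. *Il1r2*, the decoy, reached 9 counts in Tc1 replicate 2, 16 in Tc9 replicate 1 and 18 in Tc9 replicate 2, with CPM ratios of 1.78 (0.803 to 3.94) and 2.0 (0.917 to 4.37). Both intervals include 1, so a difference was not detectable at this depth. *Il1rn*, the antagonist, was not listed in Tc1 replicate 2 and had 6 counts in each Tc9 library. Against a floor of 3 counts per library this is 2.0-fold higher. The counting interval of the ratio starts at 1.56 in both, so 2.0 is not a lower bound. It did not pass the filter on low counts.

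Of the 8 genes, 4 (*Il1rl2*, *Il1rl1*, *Il18r1* and *Il18rap*) were at least 2-fold lower in both Tc9 libraries than in Tc1 replicate 2, and of the 7 that passed the filter on low counts 0 were at least 2-fold higher in both. Among all 2622 genes that passed the filter over these 3 libraries, 3.81% were at least 2-fold lower and 9.92% at least 2-fold higher. These shares are given as background only, since the members were picked on this contrast. The median log2 CPM ratio of all genes was 0.04, and the absolute log2 difference between the 2 Tc9 libraries was 0.73 at the 95th percentile of genes. In the same measure the 7 members that passed the filter were at -2.98 (*Il1rl2*), -2.45 (*Il1rl1*), -1.62 (*Il18r1*), -1.29 (*Il18rap*), -0.11 (*Il1r1*), 0.09 (*Il1rap*) and 0.79 (*Il1r2*). *Il1rn*, which did not pass, was at 2.0, a value that rests on 0 counts in the Tc1 library and on the prior count. Genes called by a test are not counted over this range, as Tc1 has no replicate there.

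**Figure D2:**
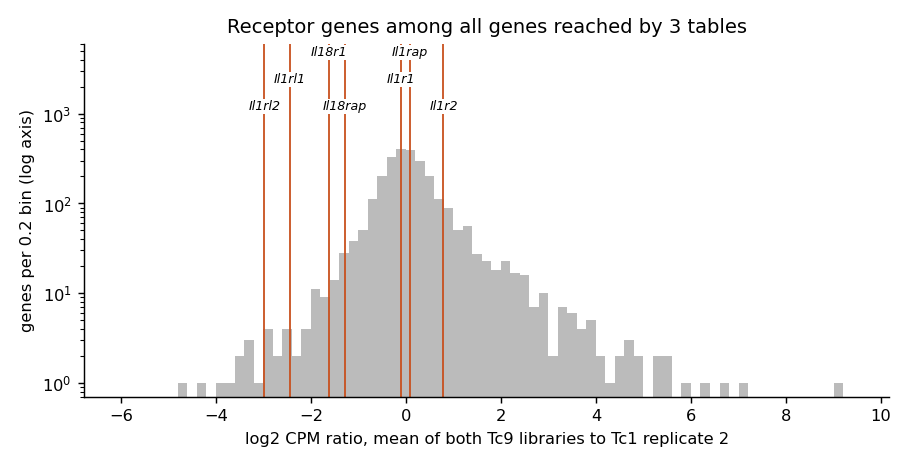
Distribution of the log2 CPM ratio (mean of both Tc9 libraries to Tc1 replicate 2, horizontal) over the 2622 genes that passed the filter, as genes per bin on a log axis, with 7 family members as orange lines. *Il1rl2*, *Il1rl1*, *Il18r1* and *Il18rap* lie in the lower tail, *Il1r1* and *Il1rap* near the center, and *Il1r2* above it at 0.79.

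The order of the genes per length differed between the groups. In Tc1 replicate 2 the order from the highest FPKM was *Il18r1*, *Il18rap*, *Il1rap*, *Il1rl1*, *Il1rl2*, *Il1r2*, *Il1r1* and *Il1rn*. In Tc9 cells *Il18r1* (3.65 to 4.90 FPKM over the 2 libraries) overlapped both *Il1rap* (4.0 to 4.45 FPKM) and *Il18rap* (3.14 to 3.91 FPKM), so *Il18r1* did not differ from either beyond the spread between libraries, although it was above *Il18rap* within each Tc9 library. *Il1rap* lay above *Il18rap* in both Tc9 libraries without overlap, the reverse of the Tc1 library (3.85 against 8.28 FPKM). Below them, *Il1r2* (0.42 to 0.48 FPKM) stood above *Il1rl1* (0.17 to 0.26 FPKM), the reverse of their order in the Tc1 library. *Il1rl2* (0.05 to 0.13 FPKM), *Il1r1* (0.05 to 0.10 FPKM) and *Il1rn* (0.08 FPKM in both) overlapped at the bottom.

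The rule did not use chromosomal position. Of the 8 genes, 6 lie in one cluster on mouse chromosome 1 (chr1:40084692-40551707, GRCm38/mm10), all on the plus strand, in the order *Il1r2*, *Il1r1*, *Il1rl2*, *Il1rl1*, *Il18r1* and *Il18rap* over 467 kb. *Il1rap* is on chromosome 16 (chr16:26581509-26730128) and *Il1rn* on chromosome 2 (chr2:24336860-24351491). The 4 genes that were lower in both Tc9 libraries are consecutive in the cluster, from *Il1rl2* to *Il18rap*, and their log2 ratios in that order were -2.98, -2.45, -1.62 and -1.29. *Il1rl1* ends 133 bases before *Il18r1* starts on the same strand. How the counting treated reads that run past a gene's end, or the strand of a read, is not given in the sources used here. Of the 10 nearest annotated genes, 5 on each side, *Mfsd9* had 22 counts in Tc1 replicate 2 and 28 in Tc9 replicate 2, *Map4k4* had 5307 counts in Tc9 replicate 2 and was not reached by the other tables, and the others were not listed in the tables.

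**Figure D3:**
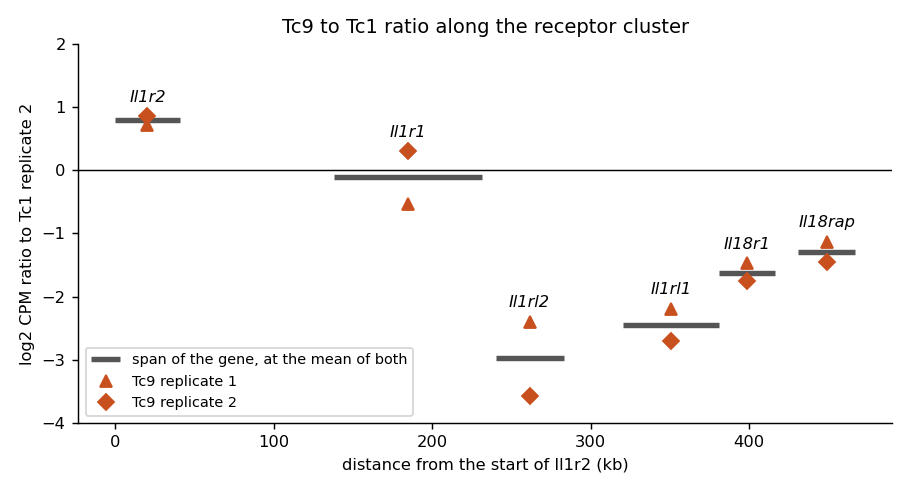
log2 CPM ratio of each Tc9 library to Tc1 replicate 2 (vertical) along the 6-gene cluster, as distance in kb from the start of *Il1r2* (horizontal); bars span each gene at the mean of both Tc9 libraries. The 4 consecutive genes from *Il1rl2* to *Il18rap* lie below -1 in both Tc9 libraries. *Il1r1* and *Il1r2* do not, but rest on 18 or fewer counts per library. The counting interval of *Il1r1* in Tc9 replicate 1 includes a 2-fold decrease.

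Because the 4 lower genes are neighbors, the sequence at their starts was read from RefSeq promoter windows (GRCm38.p6, 250 bases before to 50 bases after each start), which matched all 8 symbols. A 9-letter motif of the kind bound by NF-κB, GGAATTTCC on either strand, was in a window of *Il1rl2*, *Il1rl1* and *Il18rap*, and in 0.317% of all 32851 windows of 27025 genes (104 windows). It was not in the windows of *Il18r1*, *Il1r1*, *Il1r2*, *Il1rap* or *Il1rn*. The motif was chosen after the sequences had been seen, so its presence is a description and no site of binding was measured. The following 30-base stretches are shown to set the matches side by side, each 5′ to 3′ on the strand that reads the motif, with the motif in capitals.
Il1rl2, chr1:40324463-40324492, plus strand, match at -116 from the start: cattgcttaaGGAATTTCCtgcttctccct
Il1rl1, chr1:40439626-40439655, plus strand, match at base 8 from the RefSeq start: ggtaagtttaGGAATTTCCagtaagtgaga
Il18rap, chr1:40515332-40515361, minus strand, match at -19 from the start: ttcctttacaGGAATTTCCtgtaccaaatg

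The 250 bases directly before the start of *Il1rl2*, the gene with the largest difference, and of *Il18rap*, the last gene of the cluster, are given on the plus strand to show where the motif lies, in capitals. In *Il18rap* it reads as its reverse complement, GGAAATTCC.
Il1rl2, chr1:40324339-40324588, plus strand: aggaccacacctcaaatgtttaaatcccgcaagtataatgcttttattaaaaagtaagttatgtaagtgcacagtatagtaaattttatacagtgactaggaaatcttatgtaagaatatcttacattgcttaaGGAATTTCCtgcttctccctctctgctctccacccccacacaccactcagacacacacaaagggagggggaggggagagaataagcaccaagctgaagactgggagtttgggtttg
Il18rap, chr1:40515112-40515361, plus strand: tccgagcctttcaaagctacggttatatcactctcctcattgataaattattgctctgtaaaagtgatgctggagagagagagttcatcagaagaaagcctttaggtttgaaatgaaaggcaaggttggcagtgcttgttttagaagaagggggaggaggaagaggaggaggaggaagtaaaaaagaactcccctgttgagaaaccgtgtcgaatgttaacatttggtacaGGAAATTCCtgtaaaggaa

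Other motifs were searched on both strands in the same windows. Like the 9-letter motif, which is not in the windows of *Il18r1*, none was in windows of all 4 lower genes. The STAT motif TTCNNNGAA (8.30% of all windows) was in a window of *Il18r1* and of *Il1r2*, and the STAT6 spacing TTCNNNNGAA (6.95%) was in windows of *Il18r1*, *Il18rap* and *Il1rn*. The GATA motif AGATAA (11.2%) was in windows of *Il1rl1*, the AP-1 motif TGANTCA (7.81%) in a window of *Il1rn*, and the T-box motif AGGTGTGA (1.28%) in a window of none of the 8 genes.

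The genes most like *Il1rl2* over the 4 libraries were taken by the distance between log2 CPM profiles, each centered on its own mean. The nearest was *Cd36*, the fatty acid scavenger receptor (distance 0.256, against a median of 3.12 over 1283 genes), with counts of 111 and 118 for the Tc1 libraries and of 17 and 6 for the Tc9 libraries. The next were *Mylk*, the myosin light chain kinase (0.730), *Cd80*, a costimulatory ligand (0.778), *Isg15*, an interferon-induced ubiquitin-like protein (0.807), and *Calcb*, a calcitonin gene-related peptide (1.07). *Cd80* was at 1724 and 1699 counts in the Tc1 libraries and at 175 and 152 in the Tc9 libraries, and *Isg15* at 414 and 439 against 57 and 55. These genes follow the pattern of *Il1rl2* by construction of the measure, over 4 libraries only and within the identifiers that every table reaches.

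Ligands and signaling genes of the pathway were read from a list of 56 further genes. Of these, 7 were not listed in any table, 14 were reached by Tc9 replicate 2 only, 5 had under 10 counts in both replicate 2 libraries, and 30 could be compared between the replicate 2 libraries. The median log2 CPM ratio of the 30 was -0.02, against 0.03 over the 6226 genes with at least 10 counts in either library. Of the 30, 0 were at least 2-fold lower in Tc9 replicate 2 and 1 was at least 2-fold higher, against 4.95% and 11.0% of all those genes. At least 1.5-fold, with the prior count of 2 in each ratio, 3 were lower (*Irak2*, *Casp4* and *Rel*) and 5 higher (*Il1a*, *Map3k8*, *Map2k6*, *Rela* and *Bcl3*), against 12.8% and 21.0% of all those genes. *Casp1* was just inside that limit with the prior count (log2 ratio -0.57) and just past it without (CPM ratio 0.661). With 1 library per group this comparison has no replicate check.

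Among the ligands, *Il1a*, which encodes IL-1α, was the one at a level to compare. Its counts were 6 in Tc1 replicate 2, 76 in Tc9 replicate 1 and 68 in Tc9 replicate 2, both Tc9 values far above the Tc1 value. With 1 Tc1 library, the test over the 3 libraries takes all spread from the Tc9 libraries and assumes that the Tc1 library varies like them. Over the genes that all 4 tables reach, the Tc1 libraries differed less from each other than the Tc9 libraries did (chi-square per gene 4.53 and 42.1). That test covered 9 list genes, *Il1a* among them. *Il1a* passed the filter on low counts through its Tc9 counts alone, as its Tc1 count of 6 lies under the minimum of 10. Under that assumption its log2 fold change was 3.56 (SE 0.46) in the edgeR fit, given as an effect size only. In that test 7.51% of all genes were called higher and 3.20% lower. *Il1a* was called higher there with the filter on low counts and was not called without it. With 1 Tc1 library and a filter passed only through Tc9, that call cannot decide whether *Il1a* differs. Its CPM ratio between the replicate 2 libraries was 11.3 (5.03 to 25.5). *Il1b* had 1, 0 and 0 counts and *Il18* had 3, 0 and 1 counts in Tc1 replicate 2 and Tc9 replicates 1 and 2. *Il33* had 2 counts in Tc9 replicate 2, and *Il1f9* (IL-36γ) was not listed in Tc1 replicate 2 and had 0.97 expected counts in Tc9 replicate 2, so ligands of ST2 and of the IL-36 receptor were at or under the floor of 3 counts in the sorted cells where they could be read.

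Of the kinases and adaptors downstream of the receptors, *Irak2* could be tested over the 4 libraries, and *Irak1* and *Irak2* over the 3. *Irak2*, an IRAK kinase, gave 329 and 367 counts for the Tc1 libraries against 206 and 209 for the Tc9 libraries, without overlap. *Irak2* was lower in Tc9 cells over the 4 libraries (log2 fold change -0.74, SE 0.14, adjusted p = 0.00401 in edgeR), the only gene called of 4 list genes tested. In that test 16.7% of all genes were called lower and 17.4% higher. The call was lost without Tc1 replicate 2 (log2 fold change -0.66). Over the 3 libraries, where Tc1 has no replicate, *Irak2* did not pass in edgeR (log2 fold change -0.82). There it did not pass with DESeq2, with limma or without the filter either, and passed only with DESeq2 size factors in edgeR (log2 fold change -0.86). Between the replicate 2 libraries, 3 of the 12 adaptor and kinase genes were below 0 and 9 above, with a median log2 CPM ratio of 0.18 and a range of -0.81 to 0.90. *Myd88*, the adaptor of all these receptors, was at 1945 and 2092 counts in these Tc1 and Tc9 libraries, and *Traf6*, the ubiquitin ligase after the IRAK kinases, had 5609 and 6902.

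NF-κB genes varied on both sides. Of 14 genes, 10 had a log2 CPM ratio below 0 and 4 above between the replicate 2 libraries (median -0.10, range -0.62 to 0.94). *Rel* (c-Rel, 2180 counts in Tc1 and 1420 in Tc9 replicate 2) and *Nfkbia* (IκBα, 1863 and 1272) were at the low end. *Bcl3*, an atypical IκB protein, gave 447 and 426 counts for the Tc1 libraries against 461 and 818 for the Tc9 libraries, and did not pass the 4-library test (log2 fold change 0.55, SE 0.23, adjusted p = 0.0835 in edgeR). The caspase genes of the list did not pass it either, with log2 fold changes of -0.44 for *Casp4* (adjusted p = 0.0638 in edgeR) and -0.42 for *Casp1* (adjusted p = 0.203 in edgeR). *Sigirr*, an inhibitory receptor of the family, had 1323 counts in Tc1 replicate 2 and 1572 in Tc9 replicate 2 (CPM ratio 1.19, 1.11 to 1.28).

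**Figure D4:**
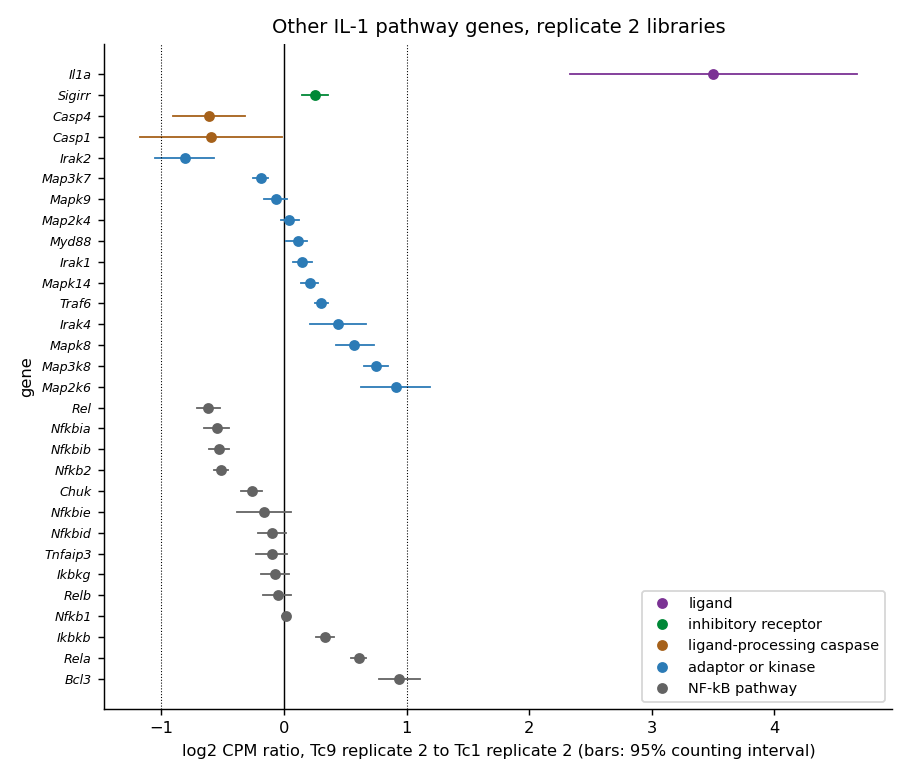
log2 CPM ratio of Tc9 replicate 2 to Tc1 replicate 2 (horizontal) for the 30 list genes with at least 10 counts in either library, without a prior count, by role; bars are 95% counting intervals and dotted lines mark 2-fold. *Il1a* lies beyond 2-fold and the other genes lie within it.

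Cells other than CD8+ T cells also carry these receptors, so marker lists were read in the replicate 2 libraries. The 10 T cell genes summed to 3500 CPM in Tc1 and 3430 CPM in Tc9 cells. Of the mast cell and basophil genes, cells rich in ST2, 5 of the 7 reached were at or under 3 counts in both libraries (*Fcer1a*, *Ms4a2*, *Cpa3*, *Mcpt8* and *Tpsb2*), and the list summed to 4.97 CPM in Tc1 and 12.2 CPM in Tc9 cells. *Kit* made up most of that sum, at 142 counts in Tc1 replicate 2, 389 in Tc9 replicate 1 and 366 in Tc9 replicate 2. Of the macrophage and monocyte genes, 8 of 11 were at or under 3 counts in both libraries, *Lyz2*, *Csf1r* and *Adgre1* among them, and the list summed to 7.58 and 14.5 CPM. Nearly all of this sum was *Cd68*, at 221 counts in Tc1 and 439 in Tc9 replicate 2, and *Itgam* was at 12 and 2. The regulatory T cell list of 3 genes summed to 17.7 CPM in Tc1 and 60.2 CPM in Tc9 cells, of which *Foxp3* had 34.61 and 1591.62 expected counts, *Ikzf2* 475 and 240, and *Cd4* 45 and 58. The NK cell list summed to 94.8 CPM in Tc1 and 60.1 CPM in Tc9 cells, with *Ncr1* at or under 3 counts and *Eomes* at 2965 and 1886 counts, and the dendritic cell list to 49.8 and 108 CPM, with *H2-Ab1* at 532 and 2314 counts. Nearly all of that difference was *H2-Ab1*, as *Cd74* was at 836 and 833 counts, *H2-Aa* at 22 and 15 and *Flt3* at 6 and 3. The neutrophil (0.159 and 0.127 CPM), B cell (5.41 and 15.5 CPM), melanoma (2.61 and 4.30 CPM) and fibroblast or endothelium lists (14.4 CPM in both) are sums over the 2 of 7, 4 of 5, 3 of 7 and 6 of 7 genes that both tables reach, so other genes of these lists were not read. Most of the B cell sum was *Cd79b*, at 155 counts in Tc1 and 473 in Tc9 replicate 2. The part of these genes, or of the cells they mark, in the receptor differences was not tested.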

How the data were processed

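Tumor-infiltrating Tc1 and Tc9 cells were profiled by RNA-Seq, 2 libraries per group. The authors deposited an expected count per gene, without normalization, and an FPKM value scaled by gene length and library depth. The aligner and counting program are not given in the sources used here; the submitters' processing notes name mm10. Each table was used up to its last gene identifier, and a short last row of 1 table was dropped. Depth was 31834276, 31927162, 31105615 and 30822953 counts in the order Tc1 replicate 1, Tc1 replicate 2, Tc9 replicate 1, Tc9 replicate 2. For the 3 incomplete tables it was derived from counts over FPKM values, relative to Tc9 replicate 2, over genes with at least 500 counts.

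Expected counts were rounded and tested in R 4.3.3 with edgeR 4.0.16 (glmQLFTest, two-sided, filterByExpr at a minimum count of 10, TMM factors of the 4-library range, Benjamini-Hochberg over all genes tested). This edgeR test gives no SE, so each SE is the absolute log2 fold change over the square root of the quasi-likelihood F statistic. log2 ratios used a prior count of 2. limma 3.58.1 on log2(FPKM + 1), DESeq2 1.42.0 and other settings were alternatives. An exact permutation test of 2 against 2 libraries cannot go below p = 0.333, so none was used. Counts were simulated with the same spread for every gene and for both groups. For the 4-library comparison (1284 genes, 200 changed by a log2 size of 2) 100% of changed genes were recovered, with 2 false calls among 202. The measured spread differed between the groups and smaller changes were not simulated, so these rates do not carry over to the data. Replicates differed beyond sampling noise (chi-square per gene 4.53 in Tc1 and 42.1 in Tc9), so each library counted as 1.

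The 8 members, the pathway, marker and motif lists and the tests were chosen with earlier results of these data known. Named are all members, pathway genes past an adjusted p of 0.05 or past 2-fold, the 5 genes nearest to *Il1rl2* in profile, the 5 nearest genes on each side of the cluster, and markers where a list is described. Further genes, given for what they do in the pathway, and *Il9* and *Ifng*, given to check the labels, were chosen after their values were seen. Promoter windows and positions came from RefSeq (GRCm38.p6) and transcript lengths from GENCODE M21.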

Additional observations from a re-analysis of the deposited data

How the results depend on the processing

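*Il1rl2* was lower in Tc9 cells under every alternative read for it, which did not include the fit without the filter on low counts. Its log2 fold changes were -0.70 on log2(FPKM + 1), -2.22 on log2(FPKM + 0.1) and -3.95 to -2.55 with 1 library left out. A pseudocount of 1 exceeds all 4 of its FPKM values. On the same scales *Il1rl1* was -0.82 and -1.99, and on log2(FPKM + 1) *Il18rap* was -1.04 and *Il1r2* 0.24. With 1 Tc9 library left out the ratios ranged from -2.71 to -2.19 for *Il1rl1*, -1.76 to -1.47 for *Il18r1*, -1.46 to -1.13 for *Il18rap*, -0.53 to 0.30 for *Il1r1*, 0.71 to 0.86 for *Il1r2*, and -0.01 to 0.20 for *Il1rap*. *Il1rn* (2.0) moved to 3.70 with a prior count of 0.5, 2.04 by depth alone, and 0.11 and 0.85 on the FPKM scales, as its Tc1 count was 0. Without the filter, 130 genes were higher and 110 lower over the 4 libraries; over the 3 libraries edgeR called 0 and 0, and 0 list genes (370, 228 and 2 at an unadjusted p under 0.05), where DESeq2 with the filter called 217, 119 and 1. The cause was not tested. DESeq2 size factors in edgeR gave 319 and 216 over the 3 libraries, and 2 list genes (*Il1a* and *Irak2*). With 1 library left out, 73 to 399 genes were higher, 48 to 407 lower and 0 to 3 list genes called over the 4 libraries, the fewest without Tc1 replicate 2 and the most without Tc9 replicate 1. Between the replicate 2 libraries 8 list genes passed 1.5-fold with the prior count of 2, 3 lower and 5 higher, against 12.8% and 21.0% of all genes. Same-numbered libraries did not deviate together (r = -0.0644), so the replicate number was not taken as a pairing; the replicate block gave 231 higher and 213 lower calls (406 of the 438 genes called without it), 2 list genes were called, and *Il1rl2* was at -3.11. No paired analysis was possible over the 3 libraries because the groups share 1 number there. Depth limits *Il1r1*, *Il1r2* and *Il1rn*, whose counts were 18 or fewer in each library.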

Other observations

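Of the pathway list, 14 genes were reached by Tc9 replicate 2 only, so their values stand without a Tc1 value. Among genes that act right after the receptors, *Tollip*, which binds IRAK kinases, had 2997 counts in that library, *Tab2*, an adaptor of the kinase TAK1, had 7423, *Peli1*, a ubiquitin ligase of the pathway, had 1742, and *Irak3*, the inhibitory member of the IRAK family, had 13. *Pycard*, the inflammasome adaptor, had 739 counts, and *Gsdmd*, the pore-forming protein cleaved by inflammatory caspases, had 461. *Nfkbiz*, an atypical IκB protein induced by IL-1 family signals, had 646 counts.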
